A study of Mus musculus with 56 samples.

Results

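The 9 genes described here were grouped around the acid-secreting machinery of the clear cells of the epididymis. Not all of them are restricted to these cells, and the values do not show which cells each gene came from. The genes are the transcription factor gene Foxi1, the V-ATPase subunit genes Atp6v1b1, Atp6v0a4, Atp6v0d2, Atp6v1c2 and Atp6v1g3, and the carbonic anhydrase genes Car2, Car4 and Car12. They were chosen by name from the 53379 genes in the count table, and all 9 were found. RNA was sequenced from 7 regions of the reproductive tract of C57BL/6 male mice aged 3 or 21 months, with no other treatment or allele in either age group. The regions were the testis, the efferent ductules that drain it, the 4 epididymal regions from initial segment through caput and corpus to cauda, and the vas deferens, with 4 libraries per region and age and 56 in all. The study dissected all regions of an age from the same 4 mice, taking both sides of each mouse, so the regions share their animals, but the labels do not say which libraries of different regions came from 1 mouse. All values come from whole pieces of tissue, in which fewer cells of a type and less RNA per cell cannot be told apart.

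Clear cells are mitochondria-rich cells of the epididymal epithelium that pump protons into the lumen, and the resulting acidic fluid helps to keep sperm quiescent while they mature and are stored. The pump is the V-ATPase, in which the cytosolic V1 sector hydrolyses ATP and the membrane-embedded V0 sector carries the protons, and several of its subunits exist as a ubiquitous isoform and an isoform of specialised cells. Carbonic anhydrases interconvert carbon dioxide and water with bicarbonate and protons, and so supply the pump. Foxi1 is a forkhead transcription factor required for the proton-secreting cells of the epididymis, kidney and inner ear.

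The libraries held between 11125279 and 20561967 counts, with a median of 16384049. The markers of the labelled tissues were where the labels placed them: the 8 germ cell markers summed to between 9478 and 11256 CPM, the counts of a gene scaled to the size of its library, in the testis and to at most 642 elsewhere, and the 5 smooth muscle markers to at least 10341 CPM in the vas deferens. Among the 3-month-old mice, 3 libraries stood apart. In replicate 2 of the caput the noncoding RNA Gm42418 took 49.7% of the counts, in replicate 3 of the cauda the 8 macrophage markers summed to 3597 CPM against 439 to 470 CPM in the other 3 libraries, and in replicate 3 of the efferent ductules the germ cell markers summed to 174 CPM against 36.0 to 39.4 CPM. In the aged efferent ductules Gm42418 took 4.93 to 22.2% of the counts, against 1.27 to 3.29% in the younger, and 2 of the 4 aged libraries held the fewest counts of all, at 11125279 and 11442133. The part of this in the age comparison of that region was not tested. Results of the 9 genes and calls of the pathway genes named here that rest on the 3 libraries are given with and without them.

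The 9 genes did not share 1 place along the tract. At 3 months the highest mean level was in the corpus for 4 genes, in the caput for 2, and in the efferent ductules, initial segment and cauda for 1 each, while no gene was highest in the testis or vas deferens. By edgeR the highest region was not separated from the next for Atp6v1g3 (corpus and cauda, adjusted p = 0.997), Atp6v1b1 (0.263) and Atp6v0d2 (0.244). At 21 months the same region as at 3 months was highest for 8 of the 9 genes, all but Atp6v1g3. Ranking the regions by mean level gave 6 neighbouring pairs per gene, of which 37 of 54 were separated at 3 months and 36 of 54 at 21 months (edgeR quasi-likelihood test, adjusted p under 0.05 over all genes). The share of such rank neighbours separated over all genes was not computed, so these counts have no like background. Fixed pairs of regions, the same for every gene, separated between 24.4% (corpus and cauda) and 75.9% (testis and cauda) of all genes tested at 3 months. At 21 months they separated between 26.9% (corpus and cauda) and 75.1% (testis and vas deferens).

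**Figure D1:**
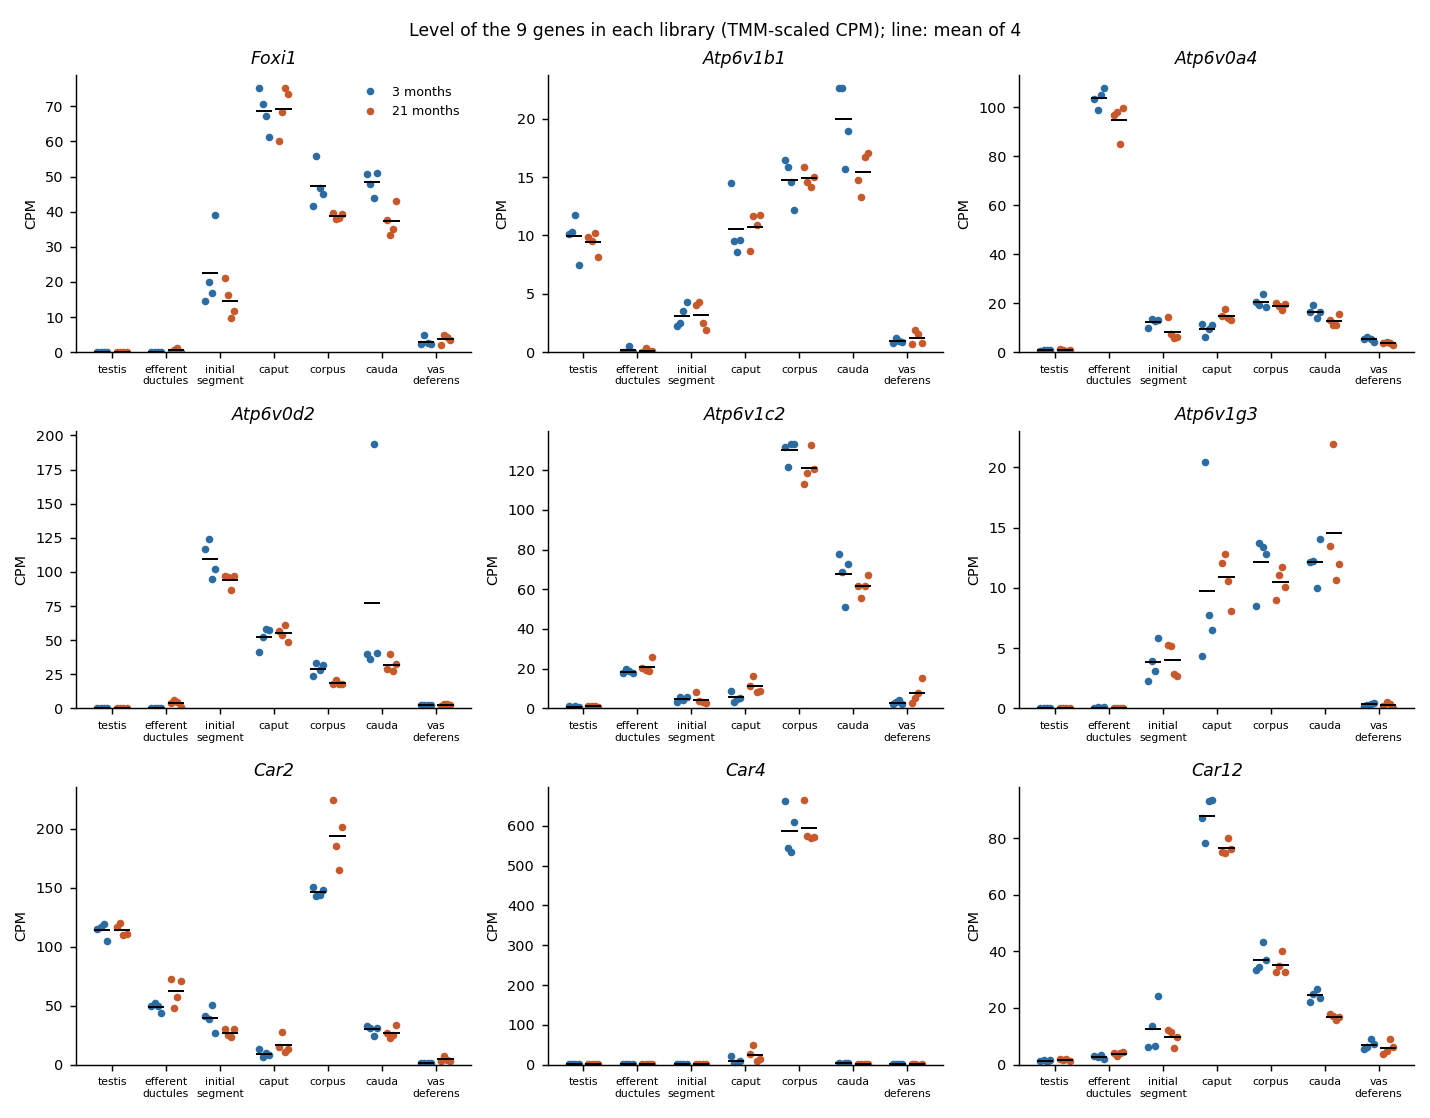
Level of each gene in CPM (vertical axis, from 0, with its own scale per gene) in the 56 libraries by region (horizontal axis), with 1 point per library, blue for 3 months and orange for 21 months, and a black line for the mean of 4. Car4 stood at 534 to 665 CPM in the corpus and at 48.2 CPM or less elsewhere, and a single cauda library of 3-month-old mice held 194 CPM of Atp6v0d2.

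Foxi1 (ENSMUSG00000047861, chr11:34204338-34208089, minus strand) was highest in the caput, lower in the corpus and cauda, and close to absent from the testis and efferent ductules. Gene coordinates throughout are those of GRCm38. Levels are in CPM, scaled across the 56 libraries by the trimmed mean of M values (TMM). At 3 months the caput libraries held 75.2, 70.5, 67.3 and 61.4 CPM, those of the cauda 50.7, 47.8, 43.9 and 51.1 CPM, and those of the corpus 41.7, 55.9, 46.9 and 45.0 CPM. The caput libraries did not overlap those of either region, and the caput was higher than the cauda by 0.66 on the log2 scale (adjusted p = 0.0159). Without the 3 libraries that stood apart this difference was 0.46 and did not pass (adjusted p = 0.113). The cauda and corpus could not be separated at either age. The initial segment held 14.4, 20.0, 16.7 and 39.0 CPM, so that 1 library came close to the corpus, and the vas deferens held 2.22 to 4.75 CPM. In the testis a total of 5 counts over 4 libraries was found, and in the efferent ductules a total of 3. At 21 months the caput was again highest, with 60.1 to 75.3 CPM in the caput, 37.9 to 39.7 CPM in the corpus and 33.3 to 43.2 CPM in the cauda.

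Forkhead factors bind a core sequence, TGTTTAC, and the windows before the start sites of 7 members in RefSeq (GRCm38.p6, 250 bases before to 50 after the start) were searched for it and for the looser TNTTNAC on both strands. A match to the first is always a match to the second. Atp6v1b1 alone held the exact core, 98 bases before its start, where 3.65% of all 32851 windows hold it. The looser core was in 4 of the 7 windows, those of Atp6v1b1, Atp6v0a4, Atp6v1g3 (3 times) and Car4, against 35.3% of all windows. No match was found for Foxi1, Atp6v1c2 and Car12, and Atp6v0d2 and Car2 were not searched. The stretches from 250 to 31 bases before the start of the 4 genes with a match are shown because they hold every match, 5′ to 3′ on the strand of the gene, with the matches in capitals (GTNAANA is the looser core read on the other strand).
Atp6v1b1, chr6:83742767-83742986, plus strand: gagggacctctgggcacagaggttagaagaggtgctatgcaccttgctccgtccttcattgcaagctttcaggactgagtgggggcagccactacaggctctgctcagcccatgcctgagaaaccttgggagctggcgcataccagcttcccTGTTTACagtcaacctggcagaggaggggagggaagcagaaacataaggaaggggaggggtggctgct
Atp6v0a4, chr6:38124617-38124836, minus strand: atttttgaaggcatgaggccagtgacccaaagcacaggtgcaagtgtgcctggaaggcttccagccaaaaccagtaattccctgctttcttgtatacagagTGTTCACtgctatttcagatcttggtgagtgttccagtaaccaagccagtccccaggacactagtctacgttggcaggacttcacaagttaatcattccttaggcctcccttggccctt
Atp6v1g3, chr1:138273488-138273707, plus strand: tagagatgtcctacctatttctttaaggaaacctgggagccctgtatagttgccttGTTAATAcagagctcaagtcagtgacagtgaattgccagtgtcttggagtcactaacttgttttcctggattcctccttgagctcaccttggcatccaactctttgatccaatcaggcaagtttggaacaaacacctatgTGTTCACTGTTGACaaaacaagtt
Car4, chr11:84957504-84957723, plus strand: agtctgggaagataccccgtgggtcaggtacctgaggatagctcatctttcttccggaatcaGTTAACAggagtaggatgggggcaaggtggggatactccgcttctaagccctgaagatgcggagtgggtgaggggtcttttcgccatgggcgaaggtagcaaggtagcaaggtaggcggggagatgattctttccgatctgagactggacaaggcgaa

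Atp6v1b1 (ENSMUSG00000006269, chr6:83742990-83758855, plus strand), the B1 subunit of the V1 sector and the classic marker of proton-secreting cells, had a higher mean in each successive region from the initial segment to the cauda. At 3 months it was at 2.21, 2.51, 3.49 and 4.32 CPM in the initial segment, at 14.5, 9.50, 8.55 and 9.62 CPM in the caput, at 16.5, 15.9, 14.6 and 12.2 CPM in the corpus, and at 22.7, 22.6, 15.7 and 18.9 CPM in the cauda. The initial segment was below the caput (adjusted p = 6.32e-07). Neighbouring steps from caput to corpus and from corpus to cauda overlapped and were not separated (adjusted p = 0.189 and 0.263), but the cauda was above the caput (adjusted p = 0.0076). The testis, which has no clear cells, held 7.47 to 11.8 CPM and could not be separated from the caput (adjusted p = 0.280). The efferent ductules held at most 0.493 CPM, and that library was replicate 3, which also had the highest germ cell markers of its group.

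Atp6v1g3 (ENSMUSG00000026394, chr1:138273738-138289462, plus strand), the G3 subunit of the V1 sector, had its highest levels in the same 4 epididymal regions. In the cauda of 3-month-old mice it was at 12.2, 12.3, 9.97 and 14 CPM, in the corpus at 8.48, 13.7, 13.4 and 12.8 CPM, and in the initial segment at 2.29, 3.95, 3.13 and 5.87 CPM. The caput libraries held 4.38, 20.5, 7.72 and 6.54 CPM, and the highest of them was the library with 49.7% Gm42418. The corpus, cauda and caput could not be separated, and the caput was above the initial segment (log2 difference 1.43, adjusted p = 0.00383), by 0.71 without the libraries that stood apart (adjusted p = 0.0320). The vas deferens held 0.212 to 0.438 CPM, and the 4 testis libraries of 3-month-old mice held 0 of 73131352 counts, which allows a level of up to 0.0421 CPM, counting error only.

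Atp6v0d2 (ENSMUSG00000028238, chr4:19876841-19922605, minus strand) encodes the d2 subunit of the V0 sector, also known from osteoclasts and macrophages, and had its highest level at the start of the epididymis, where Atp6v1b1 was lowest within that organ. At 3 months the initial segment held 117, 124, 94.7 and 102 CPM, the caput 41.3, 52.2, 58.2 and 57.7 CPM and the corpus 23.9, 33.2, 28 and 31.6 CPM. In the cauda the libraries held 39.8, 35.9, 194 and 40.8 CPM, and the library at 194 CPM was the one with 3597 CPM of macrophage markers. With it, the cauda ranked above the caput by 0.46 on the log2 scale (adjusted p = 0.317). Without the 3 libraries that stood apart the direction turned, with cauda minus caput at -0.44 on the log2 scale (adjusted p = 0.0223), and the initial segment, not separated from the cauda with them (adjusted p = 0.244), was higher than it by 1.5 (adjusted p = 2.12e-10). The part of macrophages in that library's level was not tested. At 21 months, when no cauda library stood apart (28.6, 39.6, 27.3 and 32.2 CPM), the order was initial segment, caput, cauda and corpus, with each step separated (adjusted p = 0.000783, 0.000645 and 0.00849).

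**Figure D2:**
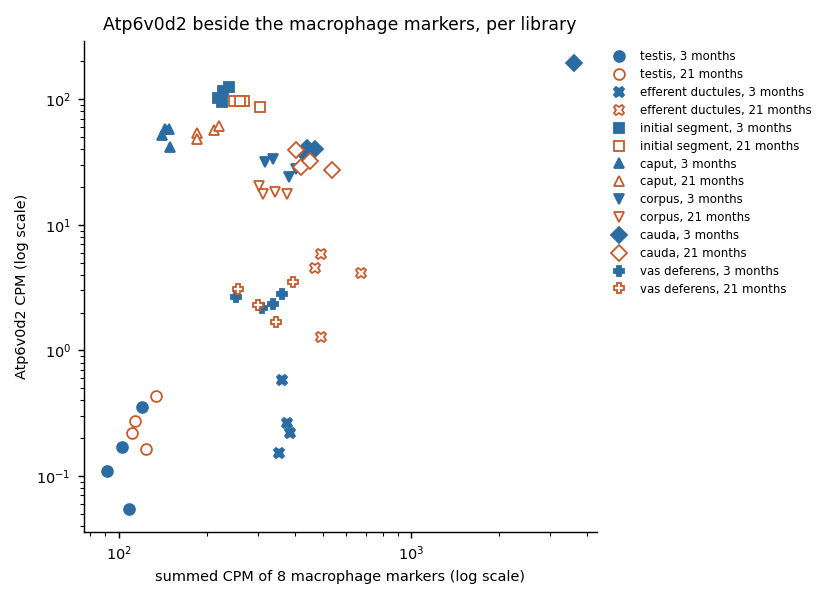
Level of Atp6v0d2 in CPM (vertical axis, log scale) against the summed CPM of 8 macrophage markers (horizontal axis, log scale) in the 56 libraries, with the symbol giving the region, filled blue for 3 months and open orange for 21 months. A single cauda library at 3597 CPM of markers and 194 CPM of Atp6v0d2 lies apart, while initial segment libraries held 86.4 to 124 CPM of Atp6v0d2 with at most 305 CPM of markers.

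Atp6v1c2 (ENSMUSG00000020566, chr12:17284721-17329359, minus strand), the C2 subunit of the V1 sector, was highest in the corpus. At 3 months the corpus held 132, 122, 133 and 133 CPM and the cauda 78.0, 68.9, 51.1 and 72.9 CPM, with no overlap and a log2 difference of 1.01 (adjusted p = 5.8e-05). The efferent ductules followed with 17.6 to 19.7 CPM, above the caput at 3.35 to 8.92 CPM (log2 difference 1.59, adjusted p = 1.11e-07). Its exons share 50 bases with Pdia6 on the other strand. The libraries were made with a stranded kit, but the strand setting of the counting is not given in the sources used here.

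Atp6v0a4 (ENSMUSG00000038600, chr6:38048483-38124586, minus strand), the a4 subunit of the V0 sector and another known marker of proton-secreting cells, was highest outside the epididymis. In the efferent ductules, which resorb most of the testicular fluid, the 4 libraries of 3-month-old mice held 103, 99.0, 105 and 108 CPM. The next highest region, the corpus, held 20.4, 19.3, 23.9 and 18.6 CPM, lower by a log2 difference of 2.30 (efferent ductules minus corpus, adjusted p = 4.05e-15). The initial segment, caput and cauda held 6.16 to 19.1 CPM. In those same 4 libraries of the efferent ductules Foxi1 had 3 counts in all. The gene shares 259 exonic bases with D630045J12Rik on the same strand and 62 with Tmem213 on the other, so part of its counts is uncertain.

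Of the carbonic anhydrases, Car2 and Car4 were highest in the corpus and Car12 in the caput. Car4 (ENSMUSG00000000805, chr11:84957786-84966044, plus strand), an enzyme anchored to the outer face of the plasma membrane, held 663, 544, 534 and 609 CPM in the corpus of 3-month-old mice. The caput came next with 22.0, 5.09, 3.51 and 9.06 CPM, lower than the corpus by a log2 difference of 5.77 (corpus minus caput, adjusted p = 1.39e-14), and the other regions held at most 4.06 CPM. Car12 (ENSMUSG00000032373, chr9:66713686-66766845, plus strand), a transmembrane enzyme, was highest in the caput with 87.0, 78.2, 93.2 and 93.4 CPM and fell along the duct to 33.3 to 43.2 CPM in the corpus and 22.2 to 26.8 CPM in the cauda. All 6 of its neighbouring pairs of regions were separated at both ages, although that of corpus and cauda at 3 months (adjusted p = 0.0454) was not without the libraries that stood apart (adjusted p = 0.0505). Car2 (ENSMUSG00000027562, chr3:14886273-14900770, plus strand), the widespread cytosolic enzyme, held 150, 143, 143 and 148 CPM in the corpus, above the testis at 115, 117, 119 and 105 CPM (log2 difference 0.45, adjusted p = 0.00592). Its caput libraries, at 6.42 to 12.8 CPM, were lower than those of every other region but the vas deferens, at 0.952 to 1.73 CPM.

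The study called a gene specific to a region at a fold of 4 or more over the other 6 regions with an unadjusted p under 0.05. It was read here as a mean of at least 4 times the mean over those regions, with p from edgeR. The CPM were scaled by TMM over the 3-month libraries alone. This rule called 4 of the 9 genes at 3 months. Car4 and Atp6v1c2 were specific to the corpus, at 213 and 8.05 times the other regions, where the rule called 2.71% of all genes. Atp6v0a4 was specific to the efferent ductules, at 9.34 times (5.48% of all genes), and Car12 to the caput, at 6.67 times (3.48% of all genes). Read as 4 times each other region taken alone, it called 2, with Atp6v1c2 at 2.01 times the next highest region and Car12 at 2.54 times. The share of all genes under that stricter reading was not computed. Without the libraries that stood apart, 5 calls were made, the added one being Atp6v0d2 in the initial segment, at 5.30 times the other regions. The shares of all genes were then 2.49% for the initial segment, 5.54% for the efferent ductules, 3.06% for the caput and 2.66% for the corpus.

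Dividing each level by the length of the merged exons makes genes comparable within a library, as CPM per kilobase. On this scale Car4 in the corpus reached 299 ± 30.6 (SD, n = 4) at 3 months, Car2 in the corpus 60.4 ± 1.56 and Atp6v1c2 in the corpus 59.8 ± 2.52. Atp6v0d2 in the initial segment reached 40.3 ± 5.0, Foxi1 in the caput 29.1 ± 2.45 and Atp6v0a4 in the efferent ductules 20.9 ± 0.752. Car12 in the caput was at 11.6 ± 0.943, Atp6v1g3 in the corpus at 6.42 ± 1.30 and Atp6v1b1 in the cauda at 4.56 ± 0.763. The B1 and G3 subunits of the V1 sector thus had the lowest peak levels per kilobase of the 9 genes.

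Because each V-ATPase gene belongs to a family of isoforms that fill the same place in the pump, the share of each family's level per kilobase was computed within each library. Atp6v1c2 held 88.9% ± 0.978 (SD, n = 4) of the C family (with Atp6v1c1) in the corpus of 3-month-old mice and 73.6% ± 10.7 in the cauda, where replicate 3 held the lowest share, 57.6%. Those were the only regions, at either age, in which a specialised isoform exceeded 50% of its family on average on the scale per kilobase. Without division by exon length, Atp6v1c2 in the cauda held 53.1% at 3 months, and Atp6v0d2 in the initial segment was also above 50%, at 53.6% at 3 months and 54.4% at 21 months. In the efferent ductules Atp6v0a4 held 47.6% ± 1.5 of the a family (with Atp6v0a1, Atp6v0a2 and Tcirg1) and Atp6v1c2 39.2% ± 2.65 of the C family. In the initial segment Atp6v0d2 held 43.3% ± 3.15 of the d family (with Atp6v0d1), against 24.7% ± 5.17 in the corpus.

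The B and G families were dominated by their ubiquitous members throughout. Atp6v1b1 held 15% ± 2.60 of the B family (with Atp6v1b2) in the caput, 13.8% ± 1.54 in the corpus and 17.1% ± 6.86 in the cauda at 3 months, where the replicate with the macrophage markers held 6.92%. The testis, at 20.9% ± 3.52, held the highest mean share, with Atp6v1b2 at 8.57 ± 0.326 CPM per kilobase there and at 26.3 ± 14.6 in the cauda. Atp6v1g3 reached 7.51% ± 0.942 of the G family (with Atp6v1g1 and Atp6v1g2) in the cauda. These shares describe whole tissue, in which the ubiquitous isoforms also come from every other cell. At 21 months the 2 shares of Atp6v1c2 were 88.4% ± 1.60 in the corpus and 75.6% ± 4.28 in the cauda.

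**Figure D3:**
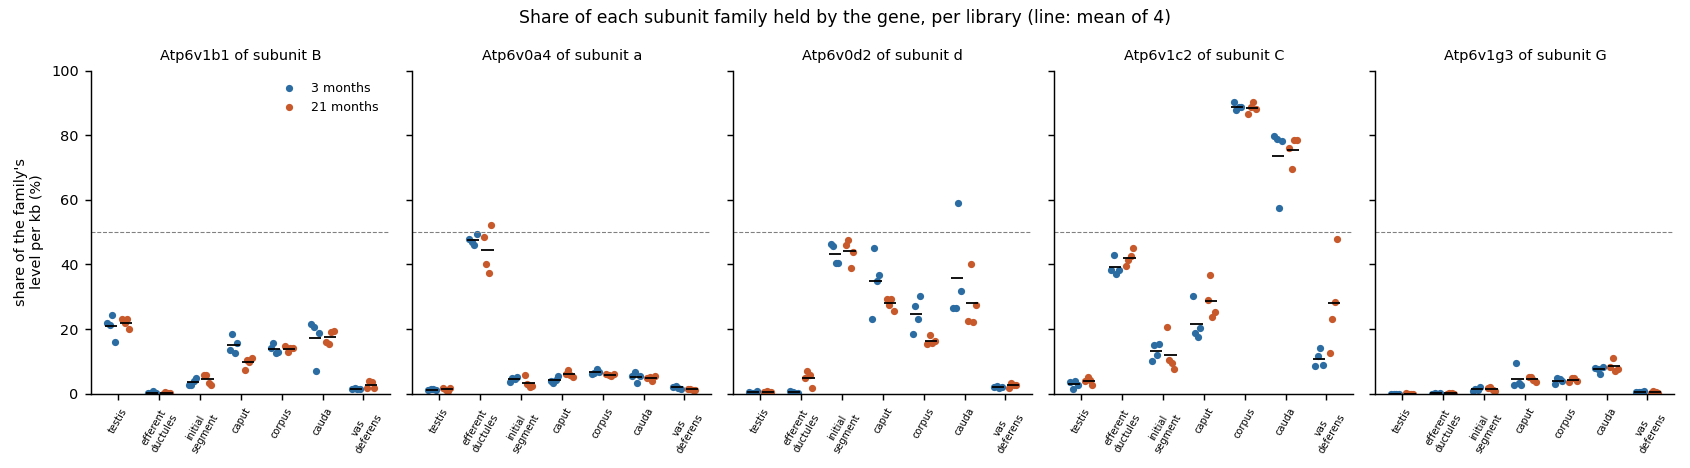
Share (%) of each subunit family's level per kilobase held by the specialised isoform (vertical axis) by region (horizontal axis), with 1 point per library, blue for 3 months and orange for 21 months, a black line for the mean of 4 and a dashed line at 50%. On this scale, only Atp6v1c2 in the corpus and cauda has a mean above the dashed line, at 88.9% and 73.6% at 3 months.

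Across the 56 libraries, Foxi1 varied most closely with Atp6v1g3 (Pearson r of log2(CPM + 1) = 0.950) and Car12 (r = 0.935), then with Atp6v0d2 (r = 0.886), and less with Atp6v1b1 (r = 0.631), Atp6v1c2 (r = 0.530) and Car4 (r = 0.515). It was hardly related to Atp6v0a4 (r = 0.136) or Car2 (r = -0.101). Without the testis, where Atp6v1b1 is present without Foxi1, the value for Atp6v1b1 was 0.940 over 48 libraries and that for Atp6v0a4 -0.405. The libraries of a region share its cell makeup, so these values mostly restate the order of 7 regions and carry no p.

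**Figure D4:**
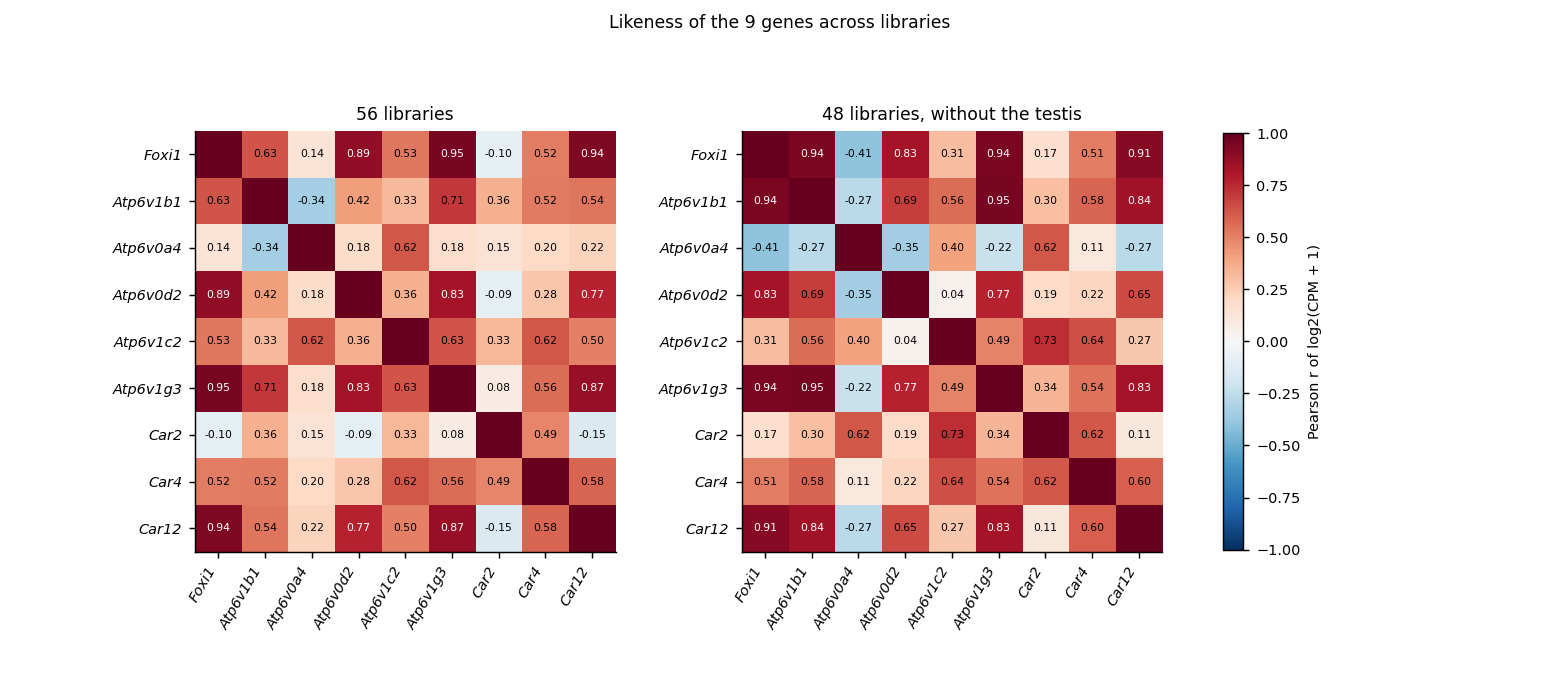
Pearson r of log2(CPM + 1) between the 9 genes (rows and columns, colour and printed value) over all 56 libraries on the left and over the 48 libraries without the testis on the right. Foxi1, Atp6v1b1, Atp6v1g3 and Car12 had r of at least 0.831 with one another without the testis, and Atp6v0a4 had negative r with each of these 4 genes there.

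The genes with the most similar pattern, among 19681 genes with a mean of at least 1 CPM, were named by the highest r over 56 libraries. For Foxi1 they were Hpdl (r = 0.977), Lcn12 (0.972) and Stap1 (0.971), of which Lcn12 encodes an epididymal lipocalin, and for Atp6v1g3 the chloride transporter gene Clcn5 (0.971), Il13ra2 (0.965) and again Stap1 (0.963). For Atp6v1b1 they were Mcf2 (0.934), Pdxdc1 (0.916) and Jakmip1 (0.909). Atp6v0a4 was closest to Ccdc17 (0.960), Fggy (0.959) and Ptch1 (0.954), and Atp6v0d2 to the epididymal gene Adam7 (0.959), Slc35b1 (0.951) and Apobr (0.946). Atp6v1c2 was closest to Cyp2j13 (0.984), Akr1c19 (0.965) and Cyp2j11 (0.951). For Car4 they were the beta-defensin gene Defb22 (0.985), Dgkk (0.980) and Pate3 (0.977), for Car12 Enpp1 (0.955), Wfdc11 (0.952) and Rnase9 (0.942), and for Car2 Rmnd5b (0.900), Stard10 (0.895) and Ak8 (0.863). No member was among the 3 genes closest to another member, and 11 of the 27 genes stayed among the closest 3 when the testis was left out.

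The age comparison asks whether the levels of the 9 genes change between 3 and 21 months. Of 60 tests of a member in a region, 9 passed an adjusted p under 0.05, with 7 higher and 2 lower at 21 months, where 6.27% of the tests of all genes in the 7 regions passed. A further 3 combinations had fewer than 10 counts and were not tested (Foxi1 in the testis, and Atp6v1g3 in the testis and efferent ductules). Foxi1, Atp6v1b1, Atp6v1g3 and Car12 passed in no region. Of the 9 differences, 2 kept an adjusted p under 0.05 under every alternative run, those of Atp6v0d2 in the efferent ductules and Car2 in the vas deferens. The p-values weigh a difference against the spread between the 4 libraries of a group, estimated with information shared across genes. The tests between regions and over all 56 libraries treated the libraries as independent, although the regions share their animals.

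**Figure D5:**
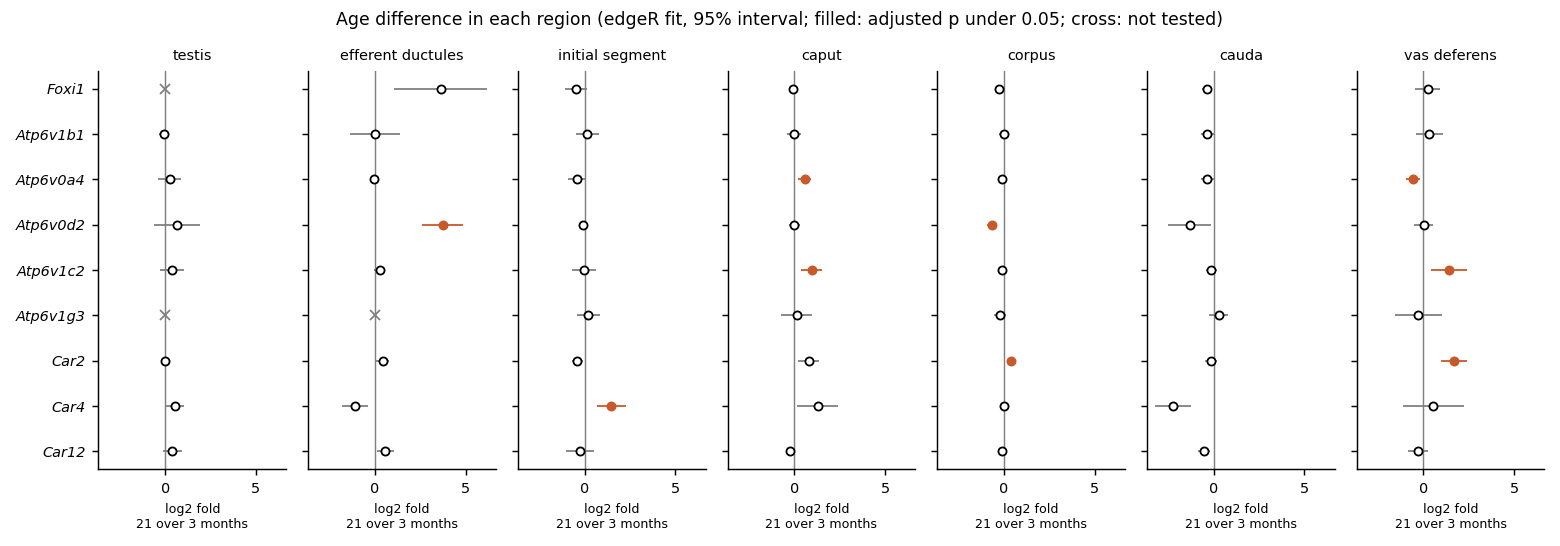
Fitted log2 fold change of 21 over 3 months (horizontal axis, with its 95% interval) for the 9 genes (rows) in the 7 regions (panels). Filled orange points mark an adjusted p under 0.05, open points the others and crosses the combinations that were not tested, and the largest filled change, 3.74, is that of Atp6v0d2 in the efferent ductules.

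In the efferent ductules 1 of the 8 genes tested passed, where 6.99% of all genes did, and 3 met an unadjusted p under 0.05 with a fold of at least 1.5 (12.8% of all genes). Atp6v0d2 was at 0.584, 0.264, 0.219 and 0.152 CPM at 3 months and at 4.12, 5.80, 4.54 and 1.27 CPM at 21 months, without overlap, a log2 fold change of 3.74 ± 0.51 (SE, adjusted p = 0.00637). The macrophage markers of the same libraries went from 355 to 385 CPM at 3 months to 470 to 673 CPM at 21 months, with 5 of 8 markers called higher and none lower (3 without replicate 3 of the younger mice). Also called higher were 4 of 6 red blood cell markers (1 without that library), 3 of 5 T cell markers and 2 of 5 smooth muscle markers (none of either without it), 1 of 6 multiciliated (also without it) and 1 of 6 basal cell markers (none without it), and 1 of 5 adipocyte markers was called lower. The part of these in the change was not tested. Foxi1 had 3 counts at 3 months and 35 at 21 months, a ratio of 15.6 with an exact 95% counting interval of 4.91 to 79.2, but was at 0, 0.718, 1.29 and 0.091 CPM in the 4 aged libraries and did not pass (adjusted p = 0.0867). The 2 aged libraries with the most Foxi1 were those with the most basal cell markers, at 144 and 123 CPM against 79.2 and 85.9 CPM. The other 2 aged libraries, with 0 and 1 counts of Foxi1, were the 2 of fewest counts and had the most Gm42418 of the group (22.2 and 18.5%). The part of either in the result was not tested. Car4, the third gene past the rule of fold and unadjusted p, went from 1.11, 1.58, 1.15 and 1.77 CPM to 0.702, 0.553, 0.798 and 0.455 CPM without overlap (log2 fold change -1.09, adjusted p = 0.0734). Atp6v0a4 was at 84.9 to 99.5 CPM in the aged mice, against 99.0 to 108 CPM, with adjusted p = 0.781. Scaled by library size alone, which moved the median of all genes to -0.38 on the log2 scale, 3 genes passed, where 20.4% of all genes did: Atp6v0d2, Car4 (-1.42, adjusted p = 0.0138) and Atp6v0a4 (-0.40, 0.0409). In the fit of all 56 libraries Atp6v0d2 and Foxi1 (3.69, 0.00353) passed, where 8.21% of all genes did.

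In the initial segment 1 of 9 genes passed, against 6.36% of all genes. Car4, at 0.258 to 0.718 CPM at 3 months, was at 1.88, 0.846, 1.34 and 1.22 CPM at 21 months, without overlap, a log2 fold change of 1.46 ± 0.38 (adjusted p = 0.0326) at a level far below that of the corpus. In the same libraries 7 of 8 germ cell markers were called lower (31.9 to 113 CPM and then 8.56 to 24.1 CPM). So were 2 of 5 smooth muscle, 1 of 6 basal cell and 1 of 5 adipocyte markers. Called higher were 3 of 8 macrophage and 3 of 5 T cell markers, and the part of all these markers was not tested. The call was lost without replicate 3 or 4 of the 3-month-old mice, or replicate 1, 3 or 4 of the 21-month-old mice (adjusted p = 0.0649 to 0.0876). Foxi1 was at 21.0, 16.3, 9.63 and 11.9 CPM at 21 months and did not differ detectably from the 14.4 to 39.0 CPM of the younger mice (adjusted p = 0.406). The young library at 39.0 CPM of Foxi1, replicate 4, also had the most Car12 (24.3 CPM against 6.36 to 13.7) and the least Car2 (26.7 CPM against 38.4 to 50.4) of its group.

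In the caput 2 of 9 genes passed, against 8.14% of all genes, and Foxi1, which had its highest level there, did not (60.1 to 75.3 CPM at 21 months, adjusted p = 0.839). Atp6v0a4 went from 11.5, 6.16, 9.53 and 11.3 CPM to 14.7, 17.6, 14 and 13.1 CPM, without overlap and with a log2 fold change of 0.57 ± 0.16 (adjusted p = 0.0450). Atp6v1c2 went from 8.92, 3.35, 4.66 and 5.10 CPM to 11.3, 16.1, 8.32 and 8.85 CPM, with overlap and a log2 fold change of 0.95 ± 0.26 (adjusted p = 0.0429). Car4 stood at 22.0, 5.09, 3.51 and 9.06 CPM in the younger mice and at 27.8, 48.2, 9.17 and 14.9 CPM in the aged, and did not pass (adjusted p = 0.147). Of the 4 genes highest in the neighbouring corpus at 3 months, Atp6v1c2, Car2 and Car4 were highest in the same caput library at each age, replicate 1 at 3 months and replicate 2 at 21 months, while Atp6v1g3 was highest in replicate 2 at 3 months. Neither call survived the removal of any library but replicate 1 of the younger mice, with adjusted p from 0.0589 to 0.140 for Atp6v0a4 and from 0.0571 to 0.131 for Atp6v1c2, among them replicate 2 with its Gm42418 (adjusted p = 0.0733 and 0.0888). Without replicate 1 of the younger mice, 5 genes passed, where 20.9% of all genes did. They were Atp6v0a4, Atp6v1c2, Car2 (0.95, adjusted p = 0.0342), Car4 (2.01, 0.0163) and, lower, Car12 (-0.30, 0.00892). In 3 other fits that kept all 8 caput libraries 4 genes passed, Atp6v0a4, Atp6v1c2 and Car2 in each, with Car12, lower, by DESeq2 (11.8% of all genes), and with Car4 without a count filter (7.58%) and in the fit of all 56 libraries (6.26%). Scaled by library size alone, Atp6v0a4 did not pass (0.74, adjusted p = 0.285) and Car4 did (1.42, 0.00134).

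In the corpus, the region of most Car4, Car2 and Atp6v1c2, 2 of 9 genes passed, against 2.97% of all genes, and 1 met the rule of fold and unadjusted p (6.84% of all genes). Atp6v0d2 fell from 23.9, 33.2, 28 and 31.6 CPM to 17.7, 20.5, 17.6 and 18.1 CPM, without overlap, a log2 fold change of -0.67 ± 0.12 (adjusted p = 0.00662). Foxi1, at 41.7 to 55.9 CPM and then 37.9 to 39.7 CPM, did not overlap either but did not pass (-0.30 ± 0.10, adjusted p = 0.134). Car2 rose from 150, 143, 143 and 148 CPM to 224, 185, 165 and 202 CPM, also without overlap, a log2 fold change of 0.39 ± 0.09 (adjusted p = 0.0274). Car4 held 534 to 663 CPM at 3 months and 568 to 665 CPM at 21 months (adjusted p = 0.997), and its 95% interval ran from -0.22 to 0.22 on the log2 scale. The summed macrophage markers, at 316 to 405 CPM and 303 to 377 CPM, had no marker called. The red blood cell markers went from 65.7 to 85.8 CPM to 102 to 438 CPM, with 4 of 6 called higher, and 2 of 5 adipocyte markers and 1 of 5 smooth muscle markers were called lower. Gm42418 took 10.4 to 26.3% of the corpus counts at 3 months and 17.0 to 36.0% at 21 months. The part of these markers and of Gm42418 in the changes of Car2 and Atp6v0d2 was not tested. In a fit of all 56 libraries, which share 1 estimate of the spread, neither gene passed (adjusted p = 0.409 and 0.469). Car2 also lost its call without replicate 2 or 3 of the younger or replicate 1, 2 or 4 of the aged mice (adjusted p = 0.0664 to 0.109).

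In the cauda none of the 9 genes passed by edgeR, where 0.128% of all genes did, although 5 had an unadjusted p under 0.05 (10.5% of all genes). On simulated counts this fit recovered 17.5% of true 2-fold changes in the cauda, against 75% in the caput. It recovered 83.5% of true 4-fold changes in the cauda, so a missing call there does not show a stable level. For the cauda, DESeq2 called 2, Car4 and Car12, against 2.14% of all genes. The study's rule for age (unadjusted p under 0.05 and a fold of at least 1.5), applied here to edgeR values where the study used DESeq2, called 2. These were Car4 and Atp6v0d2, against 8.30% of all genes. Without replicate 3 of the younger mice that rule called Car4 alone, against 7.03% of all genes. For 3 genes every library of one age lay apart from every library of the other, against 8.46% of all genes. Foxi1 was at 43.9 to 51.1 CPM at 3 months and 37.6, 33.3, 35.2 and 43.2 CPM at 21 months, a log2 fold change of -0.37 ± 0.12 (adjusted p = 0.308). Car12 went from 22.2, 24.9, 26.8 and 23.7 CPM to 17.9, 17.2, 15.8 and 16.9 CPM (adjusted p = 0.203). Car4 went from 4.06, 1.78, 3.08 and 3.19 CPM to 0.669, 0.367, 0.261 and 1.31 CPM, a log2 fold change of -2.22 ± 0.45 (adjusted p = 0.0954). The fitted change of Atp6v0d2, -1.33 (adjusted p = 0.420), rested on the younger library at 194 CPM, and without it the value was -0.25 (adjusted p = 0.668).

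In the vas deferens 3 of 9 genes passed, against 19.9% of all genes, the highest share of any region. Car2 rose from 0.952, 1.5, 1.73 and 1.07 CPM to 2.96, 7.52, 4.11 and 3.02 CPM, without overlap, a log2 fold change of 1.68 ± 0.33 (adjusted p = 0.00632). Atp6v1c2 went from 2.17, 3.00, 3.96 and 2.19 CPM to 2.74, 5.2, 7.93 and 15.5 CPM, with overlap and a log2 fold change of 1.41 ± 0.44 (adjusted p = 0.0467). The summed epithelium markers of the aged libraries stood in the same order as Atp6v1c2, at 624, 715, 849 and 901 CPM. They were above the 613 to 681 CPM of the younger mice in 3 of 4 libraries. Of these 6 markers 3 were called higher and 1 lower, and their part in the change was not tested. The smooth muscle markers were also higher, at 11833 to 18876 CPM against 10341 to 11179 CPM, with 4 of 5 called. The T cell markers went from 3.33 to 6.23 CPM to 14.2 to 39.5 CPM, with 5 of 5 called higher, 2 of 8 macrophage markers were called higher and 3 of 7 endothelium markers lower. Of the multiciliated cell markers 1 of 6 and of the germ cell markers 1 of 8 were called higher, and 1 of 6 basal cell markers lower. The part of these markers in the vas deferens results, those of the other pump subunits included, was not tested. Atp6v0a4 fell from 5.34, 6.25, 5.29 and 3.99 CPM to 3.91, 4.19, 3.54 and 3.02 CPM, a log2 fold change of -0.56 ± 0.18 (adjusted p = 0.0486). Atp6v0a4 and Atp6v1c2 each lost their call without any of 6 libraries (adjusted p up to 0.123 for both), for both genes replicates 1, 2 and 3 of the younger and 3 and 4 of the aged mice, with replicate 1 of the aged mice for Atp6v0a4 and replicate 4 of the younger mice for Atp6v1c2.

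In the testis none of the 7 genes tested passed by edgeR, where 0.563% of all genes did, nor by DESeq2 (1.31% of all genes), and 1 had an unadjusted p under 0.05 (10.4% of all genes). Car2 held 105 to 119 CPM at 3 months and 116, 120, 110 and 111 CPM at 21 months, with a 95% interval of -0.12 to 0.12 on the log2 scale. Atp6v1b1 held 7.47 to 11.8 CPM and 8.16 to 10.2 CPM (95% interval -0.33 to 0.18).

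A test of whether the age effect differed among the 7 regions, in 1 fit of all 56 libraries, passed for 6 of 9 genes, against 20.2% of all genes: Atp6v0d2 (adjusted p = 1.79e-06), Car2 (4.59e-05), Car4 (0.000538), Atp6v0a4 (0.00701), Foxi1 (0.00727) and Atp6v1c2 (0.00998). Atp6v1b1, Atp6v1g3 and Car12 did not pass (0.802, 0.919 and 0.238). The effect in a single region was also set against the mean of the other 6, a contrast that called 3.76% of all genes for the efferent ductules, 1.90% for the initial segment, 6.95% for the caput, 2.30% for the cauda and 7.70% for the vas deferens. By it, the age effect of Atp6v0d2 was higher in the efferent ductules by 3.93 ± 0.54 on the log2 scale (adjusted p = 1.25e-05), and that of Car2 was higher in the vas deferens by 1.60 ± 0.29 (0.000142) and lower in the initial segment (-1.06 ± 0.22, 0.00504). The age effect of Car4 was lower in the cauda (-2.65 ± 0.57, 0.00493) and higher in the caput (1.44 ± 0.41, 0.0210). In the initial segment the age effect of Car4 was above the others by a similar 1.49 ± 0.65, but did not pass (adjusted p = 0.286). For Atp6v0a4 the caput stood out (0.84 ± 0.20, 0.00455), for Atp6v1c2 the vas deferens (1.27 ± 0.34, 0.0102), and for Foxi1 the efferent ductules (0.00536), at the few counts given above. The value of Atp6v0d2 in the cauda (-1.89 ± 0.35, 0.00115) went to -0.87 (0.0799), and that of Car4 in the caput to 1.27 (0.0868), without the libraries that stood apart. Leaving out replicate 2, 3 or 4 of every group ended the call of Car4 in the caput (adjusted p = 0.0566 to 0.695), replicate 2 or 3 that of Atp6v0a4 in the caput (0.201 and 0.0716), replicate 1 or 3 that of Car2 in the initial segment (0.0847 and 0.0627), replicate 3 that of Foxi1 (0.226), and replicate 4 that of Atp6v1c2 (0.683). In the test over all 7 regions, leaving out replicate 2 or 3 left 3 of the 6 calls, those of Atp6v0d2, Car2 and Car4.

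The rest of the pathway was read from lists of other genes. Of 20 other V-ATPase subunit and accessory genes, 7 were higher and 1 lower at 21 months in the caput, where 3.09% of all genes were higher (median log2 fold change 0.35, against -0.01 for all genes tested), and of 19 tested in the vas deferens 1 was higher and 7 were lower, where 8.47% of all genes were lower (median -0.0021, against 0.02). In the caput the catalytic subunit gene Atp6v1a went from a mean of 86.0 to 115 CPM (log2 fold change 0.36, adjusted p = 0.0287), and Atp6v1g2, the G2 subunit, fell from 21.3 to 12.3 CPM (-0.85, 0.00608). Without replicate 2 of the younger mice 6 were higher and 1 lower, with a median of 0.27, both named genes among them. The macrophage markers of the caput went from 141 to 149 CPM to 185 to 220 CPM, with 3 of 8 called higher (2 without that library). The smooth muscle markers went from 926 to 1223 CPM to 645 to 733 CPM, with 5 of 5 called lower (4 without it), and 2 of 5 T cell markers were called higher (1 without it). Of the germ cell markers 2 of 8 were called lower (also without it), of the endothelium markers 1 higher and 1 lower of 7 (1 higher without it), of the red blood cell markers 1 of 6 higher (none without it) and of the multiciliated cell markers 1 of 6 lower (also without it). The part of these in the caput results was not tested. In the vas deferens Atp6v1a fell from 113 to 75.9 CPM (-0.64, 0.00376) and Atp6ap2, the prorenin receptor that is also a pump accessory protein, from 67.0 to 39.0 CPM (-0.84, 0.000393). In the efferent ductules Atp6v0e2 alone was called, higher (0.35, 0.0489), and no gene of the list was called in the testis, initial segment, corpus or cauda. Without replicate 3 of the younger mice that call was lost (adjusted p = 0.125). Atp6v0a1, the widespread isoform beside Atp6v0a4, held at 3 months 65.0 to 67.9 CPM in the efferent ductules and 190 to 339 CPM from the initial segment to the vas deferens. Atp6ap1, also of this list, had a mean of 199 CPM over the regions outside the testis at 3 months.

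Among 13 other carbonic anhydrase genes, of which 9 to 11 were tested per region, 8 calls were made in 67 tests (11.9%, against 6.27% of all tests), 2 higher and 6 lower, and 4 of them were lost without a library that stood apart. Car3, an enzyme of muscle and fat, was lower at 21 months in 4 regions. In the efferent ductules it fell from a mean of 427 to 173 CPM (log2 fold change -1.24, adjusted p = 0.0340), in the initial segment from 5.47 to 0.911 CPM (-2.43, 0.0301), in the caput from 7.16 to 1.12 CPM (-2.80, 0.0383) and in the corpus from 87.7 to 32.1 CPM (-1.45, 0.0252). The calls of the efferent ductules and caput were lost without replicate 3 and replicate 2 of the younger mice (-1.36, adjusted p = 0.0606, and -2.89, 0.0583). The 5 adipocyte markers had negative medians in all 7 regions, from -0.21 in the testis to -1.87 in the caput, with 1, 1, 0 and 2 of them called lower in the 4 regions in the order above and none in the other 3, and their part in the fall of Car3 was not tested. Car5b, a mitochondrial enzyme, fell in the efferent ductules from 40.0 to 25.0 CPM (-0.61, 0.0186), a call lost without replicate 3 of the younger mice (-0.64, 0.0512). Car13, a cytosolic enzyme, rose in the caput from 1.02 to 2.62 CPM (1.26, 0.0194), and without replicate 2 of the younger mice also passed (1.16, 0.0334). Car7 fell in the caput from 14.6 to 10.6 CPM (-0.52, 0.0375), a call lost without that library (-0.45, 0.0734), and Car8 rose in the initial segment from 0.170 to 0.733 CPM (2.17, 0.0164).

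Of 16 acid-base carrier genes, which include bicarbonate transporters and sodium-proton exchangers, 7 calls were made in 106 tests over the 7 regions, 4 higher and 3 lower, a share of 6.60% that is near the 6.27% of all genes. Slc26a3, an anion exchanger gene, fell in the corpus (28.7 to 17.3 CPM, -0.74, adjusted p = 0.00530) and efferent ductules (145 to 90.1 CPM, -0.60, 0.0381), the latter not called without replicate 3 of the younger mice (adjusted p = 0.0967), and Slc4a8, a sodium-bicarbonate transporter gene, rose in the corpus (41.9 to 65.5 CPM, 0.63, 0.0336) and in the initial segment (24.4 to 28.7 CPM, 0.37, 0.0239). Adcy10, the bicarbonate-sensitive adenylyl cyclase of sperm and clear cells, fell in the initial segment from 2.35 to 0.573 CPM (-1.84, 0.0420), where 7 of 8 germ cell markers also fell, and the part of germ cells was not tested. Slc9a3, a sodium-proton exchanger gene, rose in the vas deferens from 1.06 to 5.22 CPM (2.21, 0.0101), as did Slc4a5 (0.68, 0.0244). The bicarbonate transporter gene Slc4a4 was highest in the efferent ductules (268 to 304 CPM at 3 months) and initial segment (189 to 218 CPM), and Slc9a3 in the efferent ductules (162 to 201 CPM) and cauda (75.4 to 159 CPM).

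Of 14 genes known from ionocytes and kidney intercalated cells, the ammonia channel gene Rhcg was at 286 to 583 CPM in the caput at 3 months and at 2.88 CPM or less in the corpus and cauda, where Foxi1 was at 41.7 to 55.9 CPM. The transcription factor gene Tfcp2l1 was at 144 to 219 CPM in the corpus and cauda and 76.0 to 126 CPM in the caput. Of these genes 5 calls were made with age in 76 tests, a share of 6.58% that is also near the 6.27% of all genes. Hepacam2 rose in the caput from 6.10 to 11.5 CPM (log2 fold change 0.85, adjusted p = 0.0105, and 0.78 and 0.0186 without replicate 2 of the younger mice), Kit, a receptor gene also used by germ cells, in the testis from 34.7 to 46.0 CPM (0.41, 0.00198), and Stap1 in the vas deferens from 1.77 to 5.32 CPM (1.54, 0.0236). Tfcp2l1 rose in the caput from 98.9 to 134 CPM (0.39, 0.0465), a call lost without replicate 2 of the younger mice (0.35, 0.0820), and fell in the vas deferens from 93.6 to 73.7 CPM (-0.41, 0.0157).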

How the data were processed

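RNA from 7 regions of 3- and 21-month-old mice was sequenced after a stranded total RNA library preparation, 4 libraries per region and age. Per the labels and the study's methods, the authors trimmed reads with cutadapt, aligned them to mm10 with HISAT2 and counted them per gene with HTSeq (versions and strand setting are not given in the sources used here). The deposited values are raw counts of 53379 genes. From them, levels were computed as CPM with TMM factors over 56 libraries. Comparisons used the quasi-likelihood F-test of edgeR 4.0.16 (R 4.3.3) on genes with at least 10 counts in total, with Benjamini-Hochberg adjustment over all genes and a threshold of 0.05. The 2 ages were compared within each region, the regions within each age, and the interaction over all libraries. DESeq2 1.42.0, other scalings, filters, a replicate block and omission of each library were alternatives. Fits were tested on simulated counts with known changes. Coordinates and exon lengths are those of GRCm38, and promoters are from RefSeq. Members and lists were chosen with earlier results of these data known. Named genes are the 9 members, their isoform families, the 3 genes of highest r per member and, of the lists, the 2 with the largest fold change per region and direction among those past the threshold and the 2 of highest CPM. Car7, Car8 and Slc4a5 were named after their values were seen. A gene of the acid-base carrier list is not reported here.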

Additional observations from a re-analysis of the deposited data

Results flagged for a closer look

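Of 102 groups of 4 libraries examined across the 9 genes, 7 held a library far from the other 3 by Dixon's test, and chance flags about 1 in 20 groups. Atp6v0d2 stood at 194 CPM in replicate 3 of the cauda at 3 months against 35.9 to 40.8 CPM in the others, at 86.4 CPM in replicate 3 of the initial segment at 21 months against 96.1 to 96.9 CPM, and at 20.5 CPM in replicate 2 of the corpus at 21 months against 17.6 to 18.1 CPM. Foxi1 stood at 4.75 CPM in replicate 2 of the vas deferens at 3 months against 2.22 to 2.52 CPM. Atp6v1c2 stood at 122 CPM in replicate 2 of the corpus at 3 months against 132 to 133 CPM, and at 8.16 CPM in replicate 1 of the initial segment at 21 months against 2.51 to 3.46 CPM. Car4 stood at 665 CPM in replicate 1 of the corpus at 21 months against 568 to 574 CPM.

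The effect of age differed between regions for 6 genes by the interaction test of edgeR, with adjusted p = 0.00727 for Foxi1, 0.00701 for Atp6v0a4, 1.79e-06 for Atp6v0d2, 0.00998 for Atp6v1c2, 4.59e-05 for Car2 and 0.000538 for Car4.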

How the results depend on the processing

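Of 171 recomputed counts 125 stayed within 1.5 times the reported one, and of 2622 recomputed single values, called or not, 2294 kept their direction and side of the threshold. The sign turned in 87, of which 2 had an adjusted p under 0.05 in either fit, both of Atp6v0d2 in the cauda minus the caput at 3 months. Members called with age in the efferent ductules (1) were 3 with library size scaling, 3 by an unadjusted p under 0.05 with a fold of at least 1.5, and 2 in a fit of all 56 libraries. Initial segment calls (1) were 2 without a count filter and 0 with all libraries. Caput calls (2) were 4 by DESeq2, 1 with filterByExpr, 4 without a filter and 4 with all libraries. Corpus calls (2) were 1 with library size, 1 by the fold rule and 0 with all libraries. Cauda calls (0) were 2 by DESeq2, 1 without a filter, 2 by the fold rule and 2 with all libraries. Leaving out 1 library gave 1 to 2 calls in the efferent ductules, 0 to 1 in the initial segment, 0 to 5 in the caput, 1 to 2 in the corpus, and for the vas deferens 1 to 3, and leaving out a replicate number gave 3 to 6 interactions. Asking for 4 times each other region left 2 region-specific calls. For the alternatives listed here with no share of all genes given above, that share was not computed, so these counts have no background. A pseudocount of 0.1 kept 17 of the 27 nearest genes, and leaving out the testis 11. At 3 months Atp6v0d2 in the cauda minus the caput ran from -0.58 (without replicate 3 of all groups) to 0.84 when a replicate number was left out, and turned to -0.44 without the 3 libraries that stood apart, an alternative chosen after seeing the data. The other printed values that turned were differences that were not called. With library size scaling these were Car2 in the testis (-0.027), Foxi1 in the caput (0.19) and Car4 in the corpus (-0.14) with age, and Foxi1 in the cauda minus the corpus (0.15) and Atp6v1g3 in the corpus minus the cauda (-0.12) at 3 months, and Foxi1 in the corpus minus the cauda at 21 months (-0.21). Car4 in the corpus was at -0.0045 without a filter, Foxi1 in the caput at 0.015 with all libraries, and Atp6v1b1 in the caput minus the testis at -0.16 with DESeq2 size factors and at -0.16 by DESeq2. Without the 3 libraries, Foxi1 in the cauda minus the corpus was at 0.069 and Atp6v1g3 in the corpus minus the cauda at -0.075. Leaving out 1 library, age values ran from -0.18 to 0.024 for Atp6v1b1 and from -0.032 to 0.024 for Car2 in the testis, from -0.10 to 0.0026 for Atp6v0a4 in the efferent ductules, from -0.11 to 0.038 for Foxi1 in the caput and from -0.064 to 0.080 for Car4 in the corpus. Leaving out a replicate number at 3 months, they ran from -0.10 to 0.061 for Foxi1 in the cauda minus the corpus, from -0.040 to 0.48 for Atp6v1b1 in the caput minus the testis, from -0.024 to 0.20 for Atp6v1g3 in the corpus minus the cauda and from -0.13 to 0.80 for Atp6v1g3 in the cauda minus the caput. Causes were not tested.

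Same-numbered libraries deviated together in 1 of 21 pairs of regions at 3 months, 0 of 21 at 21 months and 0 of 7 between ages, so the numbers were not taken as pairing. The 1 pair was corpus and cauda (lowest r 0.12, mean 0.16, against -0.057 for libraries of other numbers). The reported tests of corpus against cauda, as of all regions, were unpaired. With the replicate block, initial segment calls went from 1 to 0 and vas deferens calls from 3 to 1, and the other regions kept their counts. Scaling by library size alone gave a median over all genes of -0.38 for the efferent ductules, of -0.17 for the corpus and of 0.19 for the caput (log2 fold change).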
